A study of Macaca mulatta with 5 samples.

Results

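Long noncoding RNAs (lncRNAs) whose level was at least 4-fold lower in R_NSCP1 cells than in rhesus monkey embryonic stem cells (rESC) were examined, together with DNA methylation at their positions. They were taken from the deposited lncRNA table as transcripts on chromosomes 1 to 20 that span from 1 kb to under 50 kb and whose position is listed once, with an FPKM (fragments per kilobase of transcript, scaled to library size) of at least 2 in rESC and at least 4-fold less in R_NSCP1. A stretch of chromosome 7 and a stretch of chromosome 2, where 14 further transcripts lay, were left out by the rule. The rule took 171 of the 1404 listed lncRNAs, here called rESC-high. They were 17.8% of the 959 mid-length lncRNAs that met the conditions on position and span, and 32.9% of the 519 among these with an rESC FPKM of at least 2. The levels in both libraries chose these lncRNAs, so the levels are a description with no test.

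The series set macaque (Macaca mulatta) rESC against cells labelled R_NSCP1. Its labels call every sample embryonic stem cell, do not spell out R_NSCP1, and give no treatment, age or sex. Each cell type had 1 RNA library, depleted of ribosomal RNA and prepared so as to keep the strand, and 1 library of methylated DNA pulled down by antibody (MeDIP). A further MeDIP sample, an input made from the 2 kinds of cell together, is not used here. With 1 library per cell type and assay, each difference is between 2 libraries and has no replicate spread to be judged by. The lncRNA table carries no gene names, so the labelled cell types were not checked against marker genes.

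Long noncoding RNAs are transcripts with no evident protein product, and many are made in a single tissue or developmental state. Some act at the locus where they are made, by recruiting chromatin regulators or through transcription itself, others act elsewhere as scaffolds or decoys, and a number have been tied to keeping or leaving pluripotency. In mammals, methylation of cytosine in promoters rich in CpG goes with a silent promoter, whereas methylation within a transcribed body is common at active genes. MeDIP reads such methylation as peaks of pulled-down fragments. Positions below are those of the deposited files, whose genome build the sources used here do not name, and the function of the individual transcripts is not known from them.

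Most of the rESC-high lncRNAs were of modest abundance in rESC and low in R_NSCP1. Their rESC FPKM ran from 2.01 to 196.2 with a median of 6.11, and their R_NSCP1 FPKM from 0 to 29.6 with a median of 0.404. Over all 959 mid-length lncRNAs the medians were 2.21 in rESC and 2.31 in R_NSCP1. For the 348 other mid-length lncRNAs with an rESC FPKM of at least 2 they were 3.88 and 3.41. On the log2(FPKM + 0.1) scale, the median difference (R_NSCP1 minus rESC) was -3.43 for the rESC-high lncRNAs and 0.06 for all mid-length lncRNAs. For the 348 others with an rESC FPKM of at least 2 it was -0.48. The added 0.1 understates differences of weakly expressed lncRNAs.

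How much was left in R_NSCP1 varied widely within the set. In R_NSCP1 33 of the 171 were listed at 0, 10 were above 0 but under 0.01, 9 from 0.01 to under 0.1, 77 from 0.1 to under 1, and 42 at 1 or more. Thus 75.4% were below an FPKM of 1 in R_NSCP1, and 5 were still at 10 or more. The R_NSCP1 value was at least 8-fold lower for 106 lncRNAs, at least 16-fold for 72 and at least 64-fold for 50, counting those listed at 0. The share of the rESC FPKM left showed next to no rank relation with the rESC FPKM itself (Spearman rho 0.003 across the 171 lncRNAs, which share both libraries and were chosen by this ratio). The depth behind the FPKM values is unknown, so a value of 0 does not show absence and no fold is given against it.

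**Figure D1:**
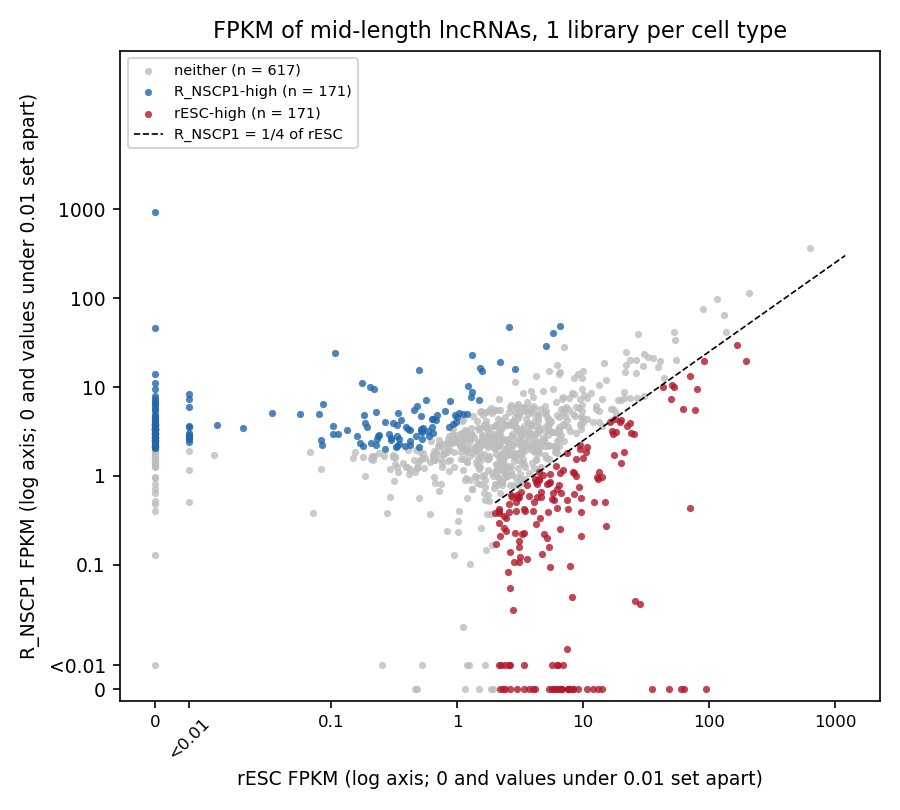
FPKM in rESC (x axis) and in R_NSCP1 (y axis) of the 959 mid-length lncRNAs, both on log axes with values of 0 and values under 0.01 set apart. Red points are the 171 rESC-high lncRNAs, blue points 171 lncRNAs at least 4-fold higher in R_NSCP1, grey points the other 617; the dashed line marks a 4-fold lower R_NSCP1 value, and 33 red points lie on the row at 0.

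In what follows, a pair of values is the FPKM in rESC and then in R_NSCP1. The most abundant lncRNA of the set, chr4:105191041-105193609 on the minus strand, had 196.2 and 19.7. The second, chr11:107148749-107152626 on the plus strand, had 167.0 and 29.6, the highest R_NSCP1 value of the set. The plus-strand lncRNA chr12:95490084-95493127 had 91.3 and 19.5. These 3 remained well expressed in R_NSCP1, at 10.03%, 17.7% and 21.4% of their rESC value.

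Some other lncRNAs with a high rESC level were listed at 0 in R_NSCP1. The short chr6:112592294-112593576 (minus strand) ranked after only 2 others in rESC, at 93.7. The plus-strand chr18:5466214-5470679 had 63.0 in rESC, and chr4:29216414-29231544, also plus, had 59.6. These 3 had no other listed lncRNA within 50 kb. Further lncRNAs that were alone on their strand and listed at 0 were chr2:146392698-146414019 (rESC FPKM 35.3), chr12:70751782-70765512 (13.2) and chr9:90298537-90333373 (11.98). At a locus of the minus strand of chromosome 20, chr20:3236948-3244236 had 48.4 and 0, and the shorter chr20:3236948-3241180 had 7.91 and 0.0966.

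The other lncRNAs among the 12 highest in rESC kept between 0.622% and 19.1% of their level. The longest of them, chr7:2838599-2883431 on the plus strand, spanned 44833 bp and had 77.4 and 5.58. A longer transcript that contained it, chr7:2792500-2883431, had 52.2 and 8.89, so both listed forms of this locus were lower in R_NSCP1. The plus-strand chr5:112481671-112483286 had 62.3 and 5.71. A short minus-strand lncRNA, chr4:83760500-83761914, had 70.2 and 13.4, and the longer chr4:83755712-83761881, which overlapped it, had 22.4 and 3.63. For a pair of plus-strand transcripts on chromosome 9 with the same far end, chr9:71863388-71868020 had 52.5 and 9.93, and chr9:71863332-71868020 had 7.77 and 0.

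**Figure D2:**
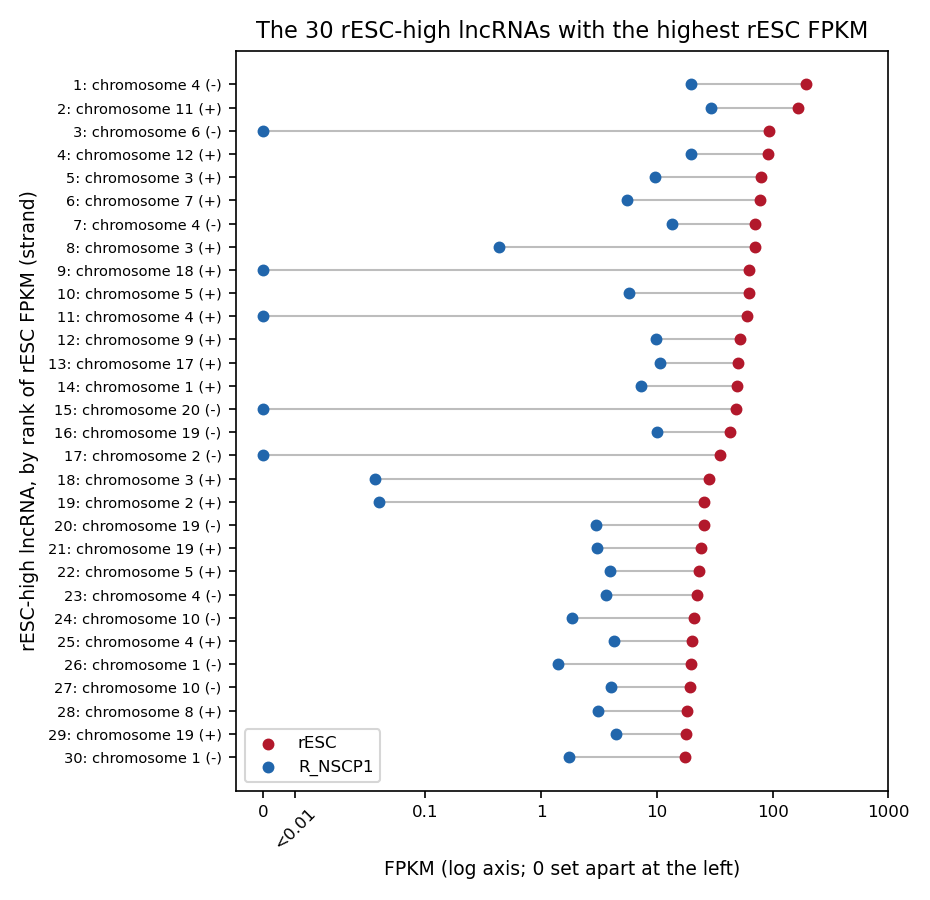
FPKM (x axis, log scale, 0 set apart at the left) of the 30 rESC-high lncRNAs with the highest rESC value, in rESC (red) and R_NSCP1 (blue), 1 library each, labelled by chromosome and strand. Of these, 5 lie at 0 in R_NSCP1, 3 others lie under an FPKM of 1, and 22 keep an FPKM of at least 1.

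The rESC-high lncRNAs at the edge of the rule differed little from lncRNAs just beyond it. At the rESC minimum, those just inside had 2.01 (chr20:54269115-54270966), 2.03 (chr11:34579394-34580683) and 2.13 (chr1:165452547-165454018) in rESC. Just outside were 1.94 (chr10:56650706-56653661), 1.90 (chr3:170293701-170295365) and 1.86 (chr9:1690783-1691904). At the ratio limit, those just inside kept 24.97% (chr8:134848008-134851234), 24.7% (chr4:32063740-32067820) and 24.7% (chr19:43745504-43747176) of the rESC FPKM. Those just outside kept 25.2% (chr12:66450058-66453808), 25.3% (chr3:56419331-56430948) and 25.9% (chr16:16703812-16709512).

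The share of lncRNAs that were rESC-high varied between bins of rESC level, which the rule also used. It was 24.0% of the 287 mid-length lncRNAs at an rESC FPKM of 2 to under 5, 40.9% of 137 at 5 to under 10, 51.2% of 43 at 10 to under 20, 36.7% of 30 at 20 to under 50 and 59.1% of 22 at 50 or more. The exact 95% binomial intervals of the last 3 bins overlapped widely (35.5% to 66.7%, 19.9% to 56.1% and 36.4% to 79.3%), so no order among them can be read. Across bins of span the shares lay close together. From 1000 to under 2000 bp the rESC-high lncRNAs were 18.0% of the mid-length lncRNAs, from 2000 to under 5000 bp 17.8%, from 5000 to under 10000 bp 17.1%, from 10000 to under 20000 bp 17.5% and from 20000 bp upwards 19.3%. The median span was 4233 bp for the set and 4094 bp for the other 788 mid-length lncRNAs. Within the set, the median rESC FPKM was 3.37 under 2000 bp, 6.14, 6.65 and 7.49 in the next bins, and 9.91 from 20000 bp upwards. The rank relation of span and rESC FPKM was loose (Spearman rho 0.325 across the 171), and the most abundant lncRNA spanned 2569 bp. This relation was not calculated for the other mid-length lncRNAs.

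The same limits on level were met outside the mid-length class at similar shares of the lncRNAs with an rESC FPKM of at least 2. They were met by 17 of 64 (26.6%, 16.3% to 39.1%) autosomal lncRNAs under 1 kb, by 18 of 59 (30.5%, 19.2% to 43.9%) of at least 50 kb, and by 20 of 60 (33.3%, 21.7% to 46.7%) on the X chromosome. These intervals all contain 32.4%, the share among all 555 autosomal lncRNAs of 1 to under 50 kb at that level.

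The rESC-high lncRNAs were spread over all 20 autosomes. Chromosome 1 held 19 of them, chromosome 4 held 17 and chromosome 5 held 12, which was 23.2%, 23.6% and 23.5% of the mid-length lncRNAs there. The highest share, 10 of 41 on chromosome 16 (24.4%, 12.4% to 40.3%), and the lowest, 1 of 13 on chromosome 18 (7.69%, 0.195% to 36.03%), had overlapping intervals. Of the lncRNAs that were R_NSCP1-high, meaning an FPKM of at least 2 in R_NSCP1 and at least 4-fold less in rESC, 3 lay on chromosome 16 and 7 on chromosome 18. Of the rESC-high lncRNAs, 79 lay on the plus and 92 on the minus strand (46.2% plus, 38.6% to 54.0%), against 48.5% plus among the other mid-length lncRNAs.

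Many rESC-high lncRNAs overlapped another listed lncRNA. Of the 171, 69 (40.4%, exact 95% interval 32.9% to 48.1%) shared at least 1 bp with another listed transcript, and 68 did so on the same strand. The shares were 22.1% (17.9% to 26.9%) of the 348 other mid-length lncRNAs with an rESC FPKM of at least 2, 19.3% (13.7% to 26.0%) of the 171 R_NSCP1-high lncRNAs, and 22.3% (19.5% to 25.4%) of all 788 other mid-length lncRNAs. None of these 3 intervals reached that of the rESC-high set. Against the other lncRNAs of like rESC level, the share was 29.0% against 18.3% at an FPKM of 2 to under 5, 28 of 56 against 27.2% at 5 to under 10, and 45.7% against 30.6% at 10 or more. Within each of these levels the intervals of the 2 shares overlapped (36.3% to 63.7% and 17.9% to 38.2% in the middle one). Overlap of intervals is not a test of a difference, and the share of the rESC-high lncRNAs was the higher at each level. Overlapping lncRNAs are not independent, since both transcripts of a pair can be in the set, and the intervals cover counting error only. Counted by place, the 171 lncRNAs lay at 147 separate loci.

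The same-strand overlaps formed 44 groups of transcripts that together held 68 rESC-high lncRNAs and 41 other transcripts. Of the groups, 29 held 2 transcripts, 10 held 3, 4 held 4 and 1 held 5. In 13 groups every transcript was rESC-high. Of the 41 other transcripts, 20 were lower and 21 higher in R_NSCP1 than in rESC, and 9 of the 41 were listed at 0 in rESC. Among the 20, 9 met the same limits on level and were outside the set only by span or repeated position. The rule had taken the other transcripts with such a loss into the set, so it shaped this split. When the FPKM of all transcripts of a group was summed, 26 of the 44 sums were still at least 4-fold lower in R_NSCP1, and 18 were not. In 7 groups the R_NSCP1 sum was less than 2-fold below the rESC sum or above it, and in 2 of these it was above. With sums in place of single values, and the 103 lncRNAs alone on their strand as they were, 149 of the 171 rESC-high lncRNAs remained at least 4-fold lower. How reads that fit several overlapping transcripts were divided among them is not stated in the sources, and its part in these values was not tested.

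**Figure D3:**
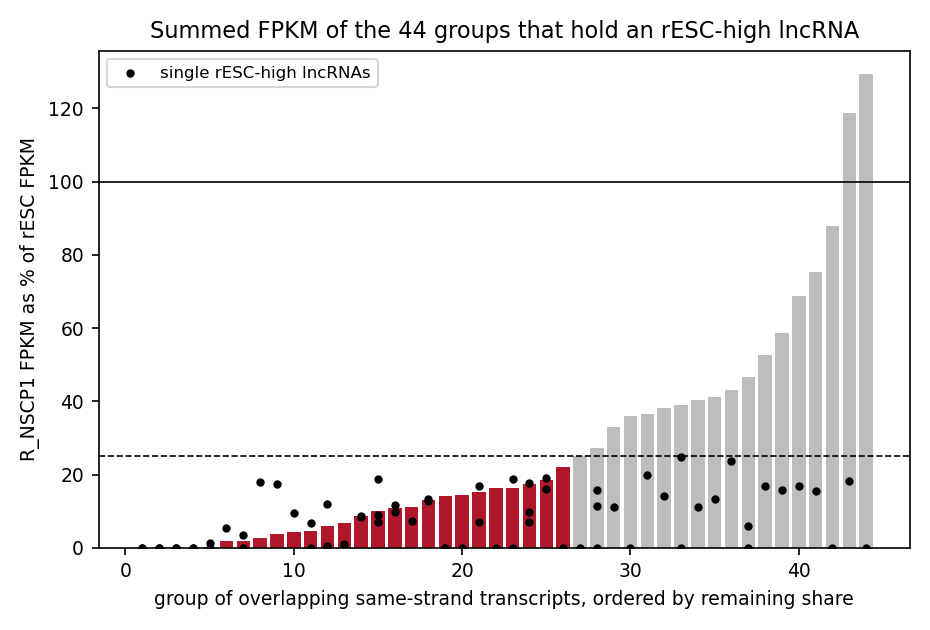
R_NSCP1 FPKM as a percentage of rESC FPKM (y axis) for the 44 groups of overlapping same-strand transcripts that hold an rESC-high lncRNA (x axis, in order of that share), as bars for the summed FPKM of the group and black points for its single rESC-high lncRNAs. Red bars (26 groups) are at least 4-fold lower in R_NSCP1, the limit marked by the dashed line; grey bars (18 groups) are not, and 2 of them pass the solid line, where both sums are equal.

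In several groups the summed FPKM of the locus was well below its rESC value in R_NSCP1. At a plus-strand locus of chromosome 3, chr3:48932548-48937037, chr3:48935294-48937037 and chr3:48942906-48944905 had 28.1, 70.2 and 80.0 in rESC and 0.0365, 0.436 and 9.58 in R_NSCP1. A transcript that spanned them all, chr3:48932516-48944905, had 0.0717 and 0.383, and the group kept 5.85% of its summed rESC FPKM. At a plus-strand locus of chromosome 4, chr4:65693246-65707423 and chr4:65700854-65707423 had 10.7 and 6.72 in rESC, and the separate chr4:65710306-65714480 had 7.61. All 3 were listed at 0 in R_NSCP1, and no further listed lncRNA lay within 50 kb. The minus-strand forms chr10:15163072-15175996 and chr10:15163072-15176941 had 13.2 and 21.1 in rESC and 1.10 and 1.86 in R_NSCP1. Between 104784286 and 104807119 of chromosome 5, 3 minus-strand transcripts had 3.09, 5.90 and 7.41 in rESC and from 0.532 to 0.580 in R_NSCP1.

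In other groups a transcript with nearly the same ends went the other way. The plus-strand chr5:10770271-10775174 had 23.3 and 3.92, and chr5:10770288-10775174, which starts 17 bp further on, had 0.00976 and 8.40. Their sum was 23.3 in rESC and 12.3 in R_NSCP1, so that 52.8% was left. A pair of minus-strand forms on chromosome 20 differed by 6 bp at the start: the rESC-high chr20:87116939-87120799 had 2.396 and 5.38e-05, and chr20:87116939-87120793 had 0 and 2.104, with 87.8% of the sum left. The plus-strand chr2:97492573-97499666 had 6.196 and 0.000193, and chr2:97492529-97499666 had 0 and 2.24, with 36.1% of the sum left. At the chromosome 20 and chromosome 2 loci the second form was listed at 0 in rESC, whereas on chromosome 5 the rESC-high form was still listed at 3.92 in R_NSCP1 beside the other. All 3 sums were lower in R_NSCP1.

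The 2 groups whose sum was higher in R_NSCP1 were of low abundance. At a plus-strand locus of chromosome 5, the rESC-high chr5:134292754-134293835 had 3.38 and 0.00197, and chr5:134292481-134293835 had 0 and 4.36. On chromosome 13, the rESC-high minus-strand chr13:70343682-70355366 had 3.06 and 0.561, and longer forms down to position 70318829 had 1.94 and 1.01 and 0 and 4.36. Of the 10 rESC-high lncRNAs with an R_NSCP1 FPKM above 0 but under 0.01, 8 overlapped another transcript of the same strand. So did 3 of 9 at 0.01 to under 0.1, 22 of 77 at 0.1 to under 1, and 19 of 42 at 1 or more. In the whole set 68 of 171 did, and a bin of 10 lncRNAs is small. Of the 33 listed at 0, 17 were alone on their strand, and for 25, these 17 included, the summed FPKM was also 0 in R_NSCP1.

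At some loci the forms of one locus differed in how much was left. The minus-strand chr4:30593826-30629507 and chr4:30593826-30630191 had 6.28 and 9.67 in rESC and 0.00164 and 0.564 in R_NSCP1. The shorter form, chr4:30593826-30616918, had 4.81 and 9.13, so that it was higher in R_NSCP1 while the 2 long forms were lower. At a plus-strand locus, chr4:32063084-32067820 had 29.6 and 17.1, and the rESC-high forms chr4:32063087-32067820 and chr4:32063740-32067820 had 8.37 and 0 and 16.3 and 4.03. The minus-strand chr13:110608301-110641355 had 14.2 and 0, while 3 longer transcripts that contained it had 8.61 to 15.1 in rESC and kept 2.69 to 6.35.

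Rates of neighbouring without overlap lay close together for rESC-high and R_NSCP1-high lncRNAs. Of the 171, 27 (15.8%, 10.7% to 22.1%) had another rESC-high lncRNA within 50 kb that they did not overlap, and 25 of the 171 R_NSCP1-high lncRNAs (14.6%, 9.69% to 20.8%) had an R_NSCP1-high one. The plus-strand chr9:90298537-90333373 and chr9:90335077-90346367, 1703 bp apart, had 11.98 and 8.21 in rESC and 0 and 0.0433 in R_NSCP1. The plus-strand chr12:47627616-47651933 and chr12:47676925-47684096 had 16.9 and 12.1 in rESC and 3.24 and 0.505 in R_NSCP1. The minus-strand chr5:10761061-10769703 (10.6 and 2.13) pointed away from chr5:10770271-10775174, with their starts 568 bp apart. This was the only pair of rESC-high lncRNAs with divergent starts within 1000 bp, and 5 rESC-high lncRNAs had any listed lncRNA in that arrangement.

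Methylation was not used to choose these lncRNAs. The counts of peaks at lncRNAs take both kinds of file to share the same genome build, which was not tested. If the builds differ, these counts say nothing about methylation at the lncRNAs. Most of them had no MeDIP peak at the start in either cell type: of the 171, 157 had none within 1000 bp of the start. A peak was called there in rESC for 5 (2.92%, exact 95% interval 0.956% to 6.69%) and in R_NSCP1 for 13 (7.60%, 4.11% to 12.6%), with 4 in both, 1 in rESC alone and 9 in R_NSCP1 alone. Among the 348 other mid-length lncRNAs with an rESC FPKM of at least 2, the shares were 5.17% (3.09% to 8.05%) in rESC and 9.20% (6.37% to 12.7%) in R_NSCP1. Among the R_NSCP1-high lncRNAs they were 3.51% (1.30% to 7.48%) and 6.43% (3.25% to 11.2%). A start peak in R_NSCP1 alone was found for 5.26% (2.43% to 9.76%) of the rESC-high, 5.46% (3.32% to 8.40%) of the other lncRNAs at that rESC level and 3.51% (1.30% to 7.48%) of the R_NSCP1-high lncRNAs. All these intervals overlapped between the sets, so no difference in peaks at the start was detectable with this number of lncRNAs. The peaks were called without a control, and a start with no called peak is not shown to be unmethylated.

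More peaks were called in R_NSCP1 throughout, with 77158 on chromosomes 1 to 20 against 44266 in rESC, a ratio of 1.74. With the R_NSCP1 list held to its 48838 strongest peaks, the number in rESC, 8 rESC-high lncRNAs (4.68%) had an R_NSCP1 peak near the start, against 4.70% of the other mid-length lncRNAs.

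**Figure D4:**
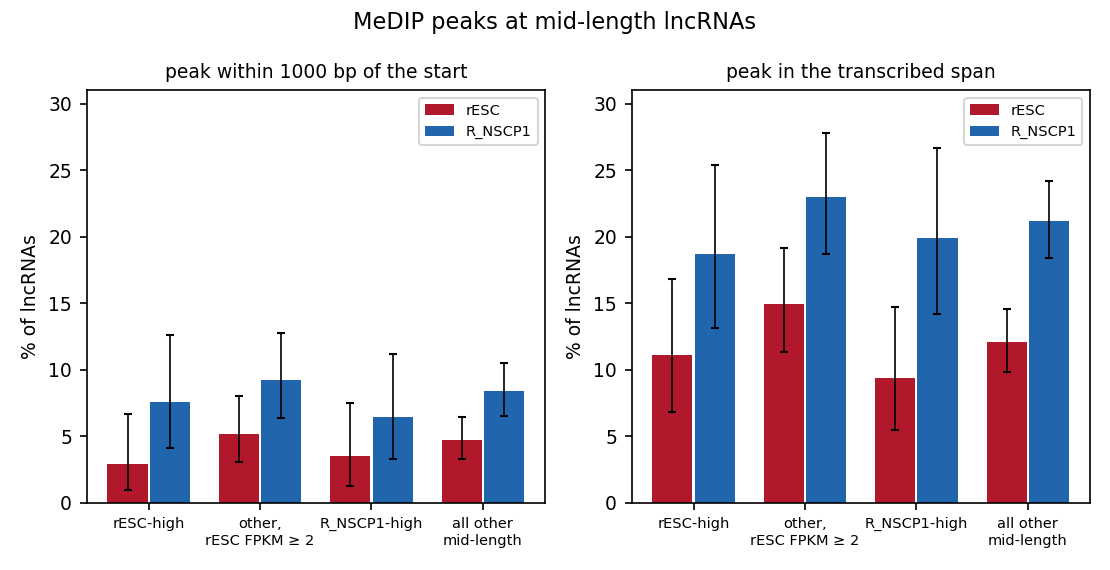
Percentage of lncRNAs (y axis) with a MeDIP peak within 1000 bp of the start (left) or in the transcribed span (right), for rESC peaks (red) and R_NSCP1 peaks (blue), in rESC-high lncRNAs (n = 171), other mid-length lncRNAs with an rESC FPKM of at least 2 (n = 348), R_NSCP1-high lncRNAs (n = 171) and all other mid-length lncRNAs (n = 788). Bars start at 0 and error bars are exact 95% binomial intervals, which overlap between the sets within each library.

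The 14 rESC-high lncRNAs with a start peak in either library had a median rESC FPKM of 3.88, against 6.196 for the 157 without. None of the 12 highest in rESC was among the 14. With so few lncRNAs, and a level that the rule used, no relation of start peaks to level is read from this. The most abundant of the 14 was chr2:146392698-146414019 (minus strand, 35.3 and 0), whose R_NSCP1 peak chr2:146413219-146413458 had its summit 688 bp inside the transcript. That peak's fold enrichment over local background, as given in the authors' list, was 5.83. On the plus strand, chr16:3037227-3039971 (9.45 and 1.999) had a peak in both libraries, with summits 612 and 595 bp inside and fold enrichments of 6.11 and 6.22. The minus-strand chr6:137377597-137383601 (9.03 and 0) had 2 rESC peaks and 1 R_NSCP1 peak near its start, so its start carried peaks in rESC, where it was expressed.

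The remaining lncRNAs with a start peak in R_NSCP1 alone had at most 8.21 in rESC. The plus-strand chr7:42939992-42942270 (4.43 and 0.935) had the peak chr7:42940603-42940899 with a fold enrichment of 9.11, the highest at any start of the set. The plus-strand chr4:549521-552837 (2.24 and 5.18e-05) had the peak chr4:549834-550138, with a fold enrichment of 8.93. The chromosome 9 lncRNA chr9:90335077-90346367, described above as the neighbour of another, had the peak chr9:90335297-90335535 with a fold enrichment of 4.93. For chr1:47194017-47195571 (plus strand, 4.52 and 0.340) the summit lay 927 bp before the start, and for chr11:34749612-34755383 (plus strand, 3.17 and 0.124) 958 bp inside. In 1 case, the minus-strand chr14:134838651-134843468 (2.403 and 0), the peak was called in rESC alone. These fold enrichments rank peaks within a list and are not scaled between the libraries.

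Peaks within the transcribed span likewise showed no detectable difference between the sets. An rESC peak lay in the span of 19 of the 171 lncRNAs (11.1%, 6.82% to 16.8%) and an R_NSCP1 peak in that of 32 (18.7%, 13.2% to 25.4%), with 16 in both, 3 in rESC alone and 16 in R_NSCP1 alone. The other mid-length lncRNAs with an rESC FPKM of at least 2 gave 14.9% (11.4% to 19.1%) and 23.0% (18.7% to 27.8%). When overlapping lncRNAs were merged, the 147 loci covered 1.12 Mb and held 20 rESC and 38 R_NSCP1 peaks, or 1.78 and 3.39 per 100 kb. The other mid-length lncRNAs held 1.86 and 3.52 per 100 kb. The ratio of R_NSCP1 to rESC peaks was 1.90 at the rESC-high loci (exact 95% interval of the counts 1.08 to 3.45), an interval that includes the 1.89 of the other mid-length lncRNAs and the 1.74 of all autosomal peaks.

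A span peak in R_NSCP1 alone was found for 9.36% (5.44% to 14.7%) of the rESC-high lncRNAs. The share was 11.2% of the other mid-length lncRNAs with an rESC FPKM of at least 2, and 13.5% of the R_NSCP1-high lncRNAs. Among all other mid-length lncRNAs it was 12.2%. The interval of the rESC-high set contains all of these shares, so no difference was detectable. A span peak in rESC alone was found for 3 of the rESC-high lncRNAs, such as the minus-strand chr13:128786238-128801250 (9.54 and 0.212). The lncRNAs named next are examples with a span peak in R_NSCP1 alone. The chromosome 9 lncRNA chr9:90298537-90333373, listed at 0 in R_NSCP1, held 4 R_NSCP1 peaks and no rESC peak. The minus-strand chr19:20947191-20975573 (25.3 and 2.96) and the plus-strand chr8:133027604-133045091 (13.0 and 0.928) each held 2 R_NSCP1 peaks and none in rESC. The 16 lncRNAs with a span peak in R_NSCP1 alone had a median R_NSCP1 FPKM of 0.128 with 4 listed at 0. The 16 with a span peak in both libraries had a median of 0.269, also with 4 listed at 0. The 136 with no span peak had a median of 0.414 with 25 listed at 0. The rule used this level, and overlapping lncRNAs can share a peak, so no relation is read from these medians. Their median spans were 5097 bp, 9195 bp and 3934 bp in the same order, and the part of length in this was not tested.

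Around the starts, the count of peaks at the rESC-high lncRNAs varied from bin to bin. In rESC, 2 peak summits lay in the 2 kb before the 171 starts (1.17 per 100 lncRNAs, exact 95% Poisson interval 0.142 to 4.22), against 4.06 per 100 (2.78 to 5.73) for the other mid-length lncRNAs. From 2 to 4 kb after the start there were 15 (8.77 per 100, 4.91 to 14.5), against 4.70 (3.31 to 6.47). These 15 were 14 separate peaks, since overlapping lncRNAs can share a peak, and the intervals treat each count as independent. In R_NSCP1 the same bins held 5.85 and 9.36 per 100, against 7.23 and 6.22. In each of these bins the intervals of the sets overlapped. At the 3′ end, 12 of the 171 (7.02%, 3.68% to 11.9%) had an rESC peak within 1000 bp and 13 (7.60%) an R_NSCP1 peak, against 4.57% and 9.14% of the other mid-length lncRNAs.

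**Figure D5:**
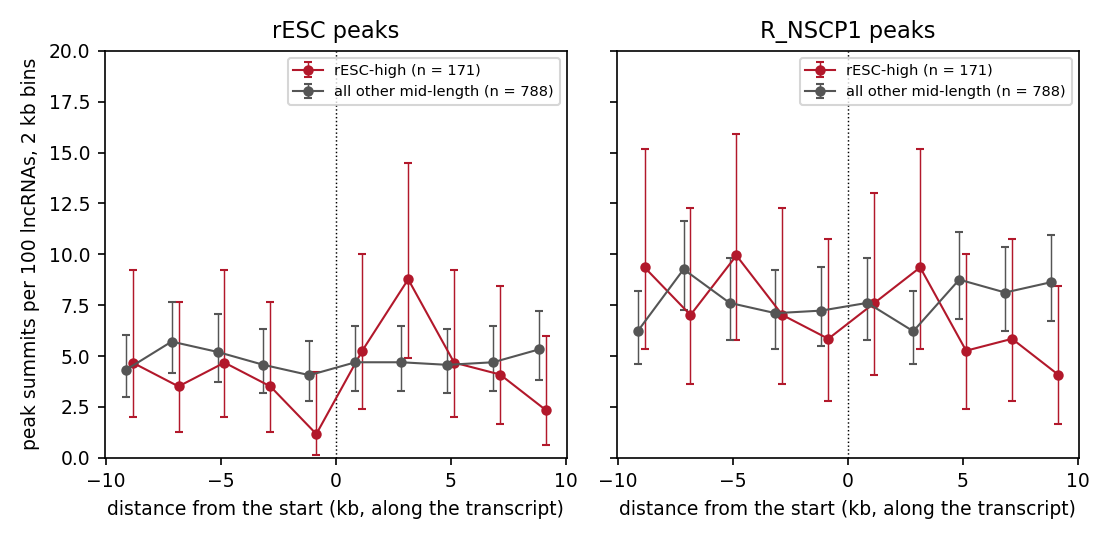
MeDIP peak summits per 100 lncRNAs (y axis) in 2 kb bins from 10 kb before to 10 kb after the start, along the direction of transcription (x axis), for rESC peaks (left) and R_NSCP1 peaks (right). Red points are the 171 rESC-high lncRNAs and dark points the 788 other mid-length lncRNAs, with exact 95% Poisson intervals of the counts; in rESC the red points are lowest just before the start (1.17) and highest 2 to 4 kb after it (8.77).

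The authors' deposited table called 64 of the 171 rESC-high lncRNAs down in R_NSCP1 (37.4%), none up, and made no call for 107. Down calls were 8.86% of all mid-length lncRNAs and 9.05% of all listed lncRNAs in the authors' deposited table. The call compares the same 2 cell types as the rule, and how it was made is not stated, so nothing is read from the count. In the authors' deposited table the call was given to 64 of the 71 rESC-high lncRNAs with an rESC FPKM of at least 7. The 100 below that held 0 calls. The level of 7 lies just under the lowest called one in the authors' deposited table, at 7.404, which by itself gives the 0. Shares called at these levels among all mid-length lncRNAs were not calculated, so no relation is read from this split. Of the 33 lncRNAs listed at 0 in R_NSCP1, 17 carried no call in the authors' deposited table, among them chr4:65700854-65707423, at 6.72 in rESC. The largest p-value of a called rESC-high lncRNA in the authors' deposited table was 0.00122 and the smallest of an uncalled one 0.00248.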

How the data were processed

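For each transcript, the deposited table of lncRNAs holds 1 FPKM value per library, calculated by the authors, beside its position and strand. Assembly, quantification and genome build are not given in the sources used here, and neither is the depth behind the FPKM values. The authors' deposited table also holds p-values from a test that is not named. MeDIP peaks were called by the authors with MACS 2.1.0.20150731 on each library alone, with a q cutoff of 0.01 and no control, per the file headers, from 8690541 tags in rESC and 9071243 in R_NSCP1. The deposited lists give a pileup signal, a fold enrichment over local background, and −log10 p and −log10 q. BWA 0.7.7 and TopHat2 2.0.11 are named in the submitters' processing notes.

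From these files the lncRNAs were selected by the stated rule, overlaps of at least 1 bp were counted, and shares were given exact 95% binomial intervals (Clopper-Pearson), with exact intervals for counts and their ratios, all for counting error only. Both kinds of file were taken to share 1 build. They use the same chromosome names, which does not show that the builds match, and this was not tested. All counts of peaks at lncRNAs depend on it. The start is the lower end on the plus strand and the higher end on the minus strand, and coordinates are 1-based. No test between cell types was made. Peak lookup and the grouping of overlapping transcripts were checked against direct counts, and start peaks and losses by planted values. The other steps were not part of this check. Named lncRNAs were the 12 highest in rESC, the 8 highest listed at 0 in R_NSCP1, the 12 highest with a peak near the start, those within 50 kb of another of the set, and the 3 on either side of each threshold. Those printed from these lists, and any other named lncRNA, were picked with their values in view. Members, lists and comparisons were chosen with earlier results of these data known. Calculations used scipy 1.17.1, numpy 2.4.6 and pandas 2.3.3 under Python 3.11.15, and figures matplotlib 3.10.9.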

Additional observations from a re-analysis of the deposited data

How the results depend on the processing

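The number of rESC-high lncRNAs, 171, was 102 with an rESC minimum of 5, 269 with a limit of 2-fold and 106 with a limit of 8-fold; it was 147 to 186 under the 6 other settings. Among these, counting loci (147) and summing overlapping transcripts (149), were chosen after seeing the data. The median log2 difference of -3.43 was -2.10 with a pseudocount of 1 and -2.94 without the lncRNAs listed at 0 in R_NSCP1. A wider window by construction takes in more peaks. Within 2000 bp of the start, 13.5% of the rESC-high lncRNAs had an R_NSCP1 peak, and within 5000 bp 32.2% had one and 21.6% had an rESC peak, against 15.1%, 31.9% and 21.1% of the other mid-length lncRNAs. With the R_NSCP1 list held to as many peaks as in rESC, a setting added after seeing the data, 12.9% had an R_NSCP1 peak in the span, against 11.7% of the other mid-length lncRNAs. No paired analysis was possible because each cell type had 1 library per assay.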

Other observations

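One locus held rESC-high lncRNAs on both strands with almost the same ends. The plus-strand chr1:204217635-204220751 had an FPKM of 49.7 in rESC against 7.36 in R_NSCP1. Of the minus-strand forms with the same low end, those reaching 204220744, 204220747 and 204220749 had 8.72, 17.5 and 19.8 in rESC and 1.54, 1.73 and 1.40 in R_NSCP1, while another, reaching 204220750, had 2.48 and 3.79. The library kit keeps the strand per the labels, but the sources used here do not say whether strand entered the quantification, so the signals of the strands cannot be told apart with certainty. No MeDIP peak was called in the span of these rESC-high lncRNAs in either cell type.

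Of the 66 mid-length transcripts of chromosomes 1 to 20 that were set aside because their position is listed more than once, 9 met the same limits on level. They include both entries of the minus-strand chr1:66672597-66674522, with 4.41 and 6.43 in rESC and 0 in R_NSCP1, which overlap the rESC-high chr1:66672597-66674315 (2.95 and 0.512).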
